A study of Mus musculus with 33 samples.

Results

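The comparison described here sets a control pull-down against the RNA it was taken from. It uses 6 of the 33 libraries of the series: 3 from an IgG pull-down and 3 from the Input, numbered 1 to 3 in each group and compared by number. The members were chosen by the column names of the deposited count table of the YTHDF2 pull-down experiment (RNA immunoprecipitation sequencing, RIP-seq). For these libraries the sample titles and the sample descriptions disagree on which are Input and which are YTHDF2 pull-down, and the column names follow the descriptions. The IgG libraries carry the same name in both.

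All 6 libraries came from neural stem cells of mouse hippocampus at postnatal day 0.5. Their genotype is written Nestin-WT, and Ythdf2-WT in the sample titles, with no treatment given. The cells were grown on poly-D-lysine in DMEM/F12 medium with B27, N2, bFGF and EGF. Lysate was incubated with an antibody, and the RNA that came down was purified and made into libraries by a modified SMART-seq3 protocol. The IgG itself is not described further in the labels, and nothing in them says that the 3 numbers are separate animals, so a p-value here measures the spread between these samples, which may be technical. The other libraries of the experiment are 3 YTHDF2 pull-downs of the same genotype, which share the numbers.

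YTHDF2 is a cytoplasmic protein that reads N6-methyladenosine (m6A) in mRNA and brings the decay machinery to it. In a pull-down of this kind an antibody to the protein is bound to beads, and RNA that travels with the protein is recovered. A control antibody of unrelated specificity, IgG, shows which RNA stays on the beads, the antibody or the tube without the protein. Such carry-over can differ between transcripts, and it sets the background against which a specific pull-down is read. Nuclear noncoding RNAs such as Malat1 and Neat1 sit in speckles and paraspeckles, small nucleolar RNAs (snoRNAs) guide modification of ribosomal RNA and are mostly cut out of introns of host genes, and microRNA hairpins are cut from longer primary transcripts in the nucleus.

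Among microRNA genes, 3 are followed below because their counts were much higher in IgG than in Input. Their hairpins, taken from RefSeq on GRCm38, are printed 5′ to 3′ with the annotated mature arms in capitals, so that the reader can see how short the counted features are. All 3 lie inside the span of a longer gene.
Mir3064: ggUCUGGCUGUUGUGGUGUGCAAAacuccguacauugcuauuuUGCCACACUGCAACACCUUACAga
Mir219-2: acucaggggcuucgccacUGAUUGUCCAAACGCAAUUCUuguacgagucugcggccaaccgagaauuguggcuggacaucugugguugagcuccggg
Mir186: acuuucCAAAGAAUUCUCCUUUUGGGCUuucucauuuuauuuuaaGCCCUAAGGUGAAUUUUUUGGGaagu
The Mir3064 hairpin is 67 bases long, on the minus strand at chr11:106782693-106782759, inside Ddx5. Mir219-2, listed by RefSeq as Mir219a-2, gives a hairpin of 97 bases on the minus strand at chr2:29845631-29845727, inside Cercam. The Mir186 hairpin has 71 bases, on the plus strand at chr3:157544279-157544349, inside Zranb2. A library of complementary DNA counts any read over these bases, so the values below describe transcripts that cover the hairpin and not the mature microRNA.

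The IgG libraries held 16869411, 18924608 and 8419106 counts and the Input libraries 23097887, 17450908 and 12017351. Between 16481 and 17030 symbols had a count in an IgG library, against 16365 to 16652 in an Input library, so the control pull-down held RNA of as many genes as the Input. The correlation across genes of log2 CPM (counts scaled to a library of standard size) was 0.951, 0.941 and 0.930 between IgG and Input of the same number, against 0.972 to 0.977 among Input libraries and 0.967 to 0.979 among IgG libraries. With the separate Input libraries of the m6A experiment, the RIP-seq Input libraries correlated at 0.927 to 0.952, the IgG libraries at 0.903 to 0.925 and the YTHDF2 libraries at 0.886 to 0.914. Those values are given because of the conflict between titles and descriptions. Genes are not independent, so these correlations carry no p.

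The control pull-down held a transcriptome close to that of Input but with differences between groups of genes: very long mRNAs were mostly higher, nuclear noncoding RNAs and splicing genes more often higher than lower, and mitochondrially encoded and ribosomal protein mRNAs mostly lower. Of 14255 genes tested among 26621 symbols, 3958 (27.8%) were higher in IgG and 3892 (27.3%) were lower by edgeR's quasi-likelihood test at a Benjamini-Hochberg adjusted p below 0.05, and 6405 were not called. More than 2-fold, 1890 (13.3%) were higher and 1086 (7.62%) lower. In 6926 genes (48.6%) the 3 IgG and 3 Input values did not overlap. The fold changes are relative to the rest of the same library: a total amount of RNA per pull-down was not measured, and scaling by library size or by ribosomal protein counts moved the split to 4699 higher and 3111 lower, and to 3675 and 1033. With limma on log2(TPM + 1), where TPM is the deposited level per length and the test changes with the scale, 5649 were higher and 1739 lower.

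**Figure D1:**
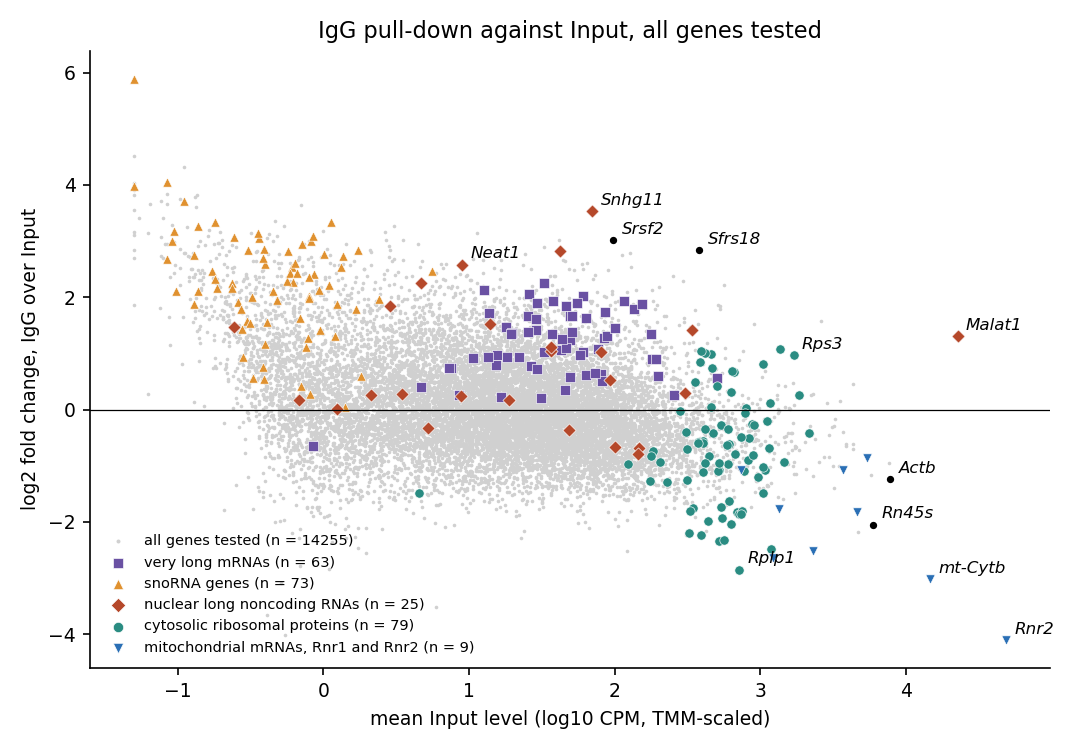
Log2 fold change of IgG over Input (vertical) against the mean Input level in CPM (horizontal, as log10; levels under 0.05 are drawn at 0.05) for each gene tested. Coloured symbols mark 5 groups of genes and black dots other named genes: Snhg11 and Srsf2 lie near the top of the abundant genes, while Rnr2 and mt-Cytb are among the lowest.

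The nuclear noncoding RNA Malat1 was the most abundant transcript of the IgG libraries. It stood at 25593, 20716 and 21881 CPM in Input 1, 2 and 3 and at 62288, 44161 and 65509 in IgG 1, 2 and 3. Every IgG value was above every Input value, and the log2 fold change was 1.31 (SE 0.14, adjusted p 2.2e-08). As a share of all counts, Malat1 rose from 2.15% ± 0.190 (SD, n = 3) in Input to 5.95% ± 1.15 in IgG, higher in 3 of 3 pairs. An exact sign-flip test over 3 pairs cannot go below p = 0.25, the value obtained here.

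Snhg11, a noncoding RNA at chr2:158375713-158386474 that hosts a snoRNA family in its introns, had the largest rise among the abundant genes. Its levels were 56.7, 70.5 and 83.4 CPM in Input and 680, 803 and 958 CPM in IgG. The groups were far apart, with an 11.6-fold rise (log2 3.54, SE 0.14, adjusted p 9.8e-15). Neat1, the scaffold of paraspeckles at chr19:5824708-5845480, read 18.5, 4.29 and 3.97 CPM in Input and 131, 23.7 and 19 in IgG. Number 1 was high in both groups, each pair rose, and the log2 fold change was 2.58 (SE 0.16). Meg3, an imprinted nuclear RNA, read 4.63, 3.83 and 5.51 CPM in Input and 25.2, 22.6 and 17.2 in IgG, without overlap (log2 2.25). Gas5, another snoRNA host, moved from 325, 277 and 413 CPM to 1178, 655 and 940, again without overlap (log2 1.42).

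Not every noncoding RNA rose. H19, an imprinted RNA found largely in the cytoplasm, fell from 115, 179 and 142 CPM in Input to 72.1, 82 and 96.7 in IgG (log2 -0.80, adjusted p 5.0e-05), a call lost under ribosomal protein scaling (-0.50) and TPM (-0.43). Xist, which coats the inactive X chromosome, read 13, 2.69 and 0 CPM in Input and 27.7, 0 and 0.221 in IgG. These values overlap and differ mostly by number, and Xist was not called (log2 -0.33, adjusted p 0.71; -5.25 to 1.16 as libraries were left out). Of 37 listed nuclear long noncoding RNAs 33 were in the table and 25 passed the filter on low counts. Of those, 12 were higher, 11 of them more than 2-fold, 4, including H19, were lower and 9 were not called. The median log2 fold change was 0.53 against -0.0071 over all genes tested. Snhg11 is in this list and in that of snoRNA hosts.

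**Figure D2:**
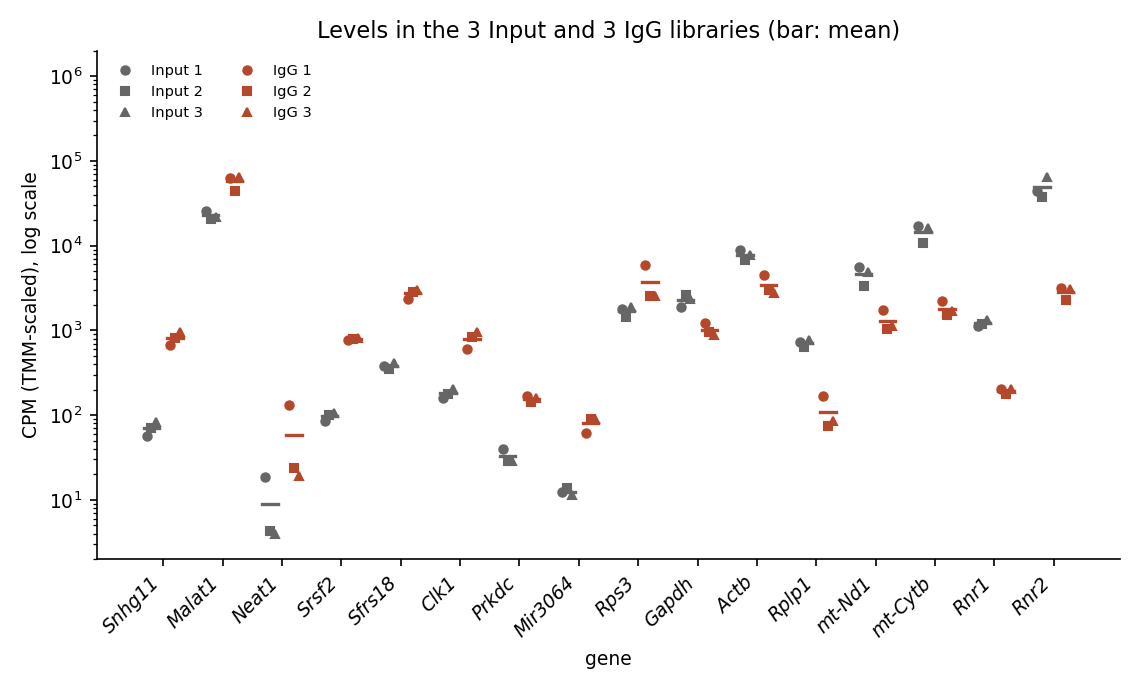
CPM (log scale) of 16 genes in each Input library (grey) and IgG library (red), with bars at the group means. Noncoding and splicing genes on the left are higher in IgG, and mt-Nd1, mt-Cytb, Rnr1 and Rnr2 on the right are lower. The IgG 1 value of Rps3 stands above IgG 2 and IgG 3.

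The summed counts of snoRNA genes were higher in IgG. Summed over all 119 snoRNA symbols, with no filter, they took 0.00492%, 0.00418% and 0.00508% of counts in Input 1, 2 and 3 and 0.0277%, 0.0187% and 0.0282% in IgG 1, 2 and 3. Each IgG share was several times the Input share of the same number, from a small base. Of the 73 that passed the filter, 61 were called higher and none lower. Most passed through the pull-down libraries, since only 11 had at least 10 counts in each Input library. Among those 11, 9 were higher, none was lower, and the median log2 fold change was 1.97.

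Snord104 guides methylation of ribosomal RNA. Its values were 4.58, 5.72 and 6.41 CPM in Input and 37.6, 22.4 and 33.3 in IgG, without overlap (log2 2.46, SE 0.19, adjusted p 2.2e-10). Snora73a, a snoRNA of the H/ACA class, read 1.92, 1.43 and 1.81 CPM in Input and 14.2, 9.4 and 13.8 in IgG (log2 2.84). Its annotated host Snhg3 rose less, from 0.421, 0.458 and 0.451 CPM to 2.12, 1.28 and 2.32 (log2 2.03, SE 0.45). Snora70 and its host Rpl10, a large-subunit ribosomal protein, moved in opposite directions. Snora70 read 1.31, 0.286 and 1.81 CPM in Input and 16.3, 6.55 and 8.95 in IgG (log2 3.35), while Rpl10 fell from 841, 667 and 828 CPM to 638, 266 and 302 (log2 -1.09, adjusted p 7.3e-06). Without the number as a block in the fit, Rpl10 was at -0.96 and not called.

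That contrast between snoRNA and host was common. A tested host gene was annotated for 69 of the 73 snoRNAs, in 52 hosts, and 65 of the 69 had a higher log2 fold change than the host. The snoRNA median was 2.25 and the host median -0.38, with 15 hosts higher and 28 lower. In 32 cases the snoRNA was called higher and its host lower. The difference between a snoRNA and its host was not itself tested, and most of these snoRNAs had few Input counts. Among the snoRNAs with at least 10 counts in each Input library, 9 of 10 with a tested host lay above it.

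MicroRNA genes gave fewer values. Summed over all 642 microRNA symbols they took 0.00707%, 0.00611% and 0.00679% of counts in Input and 0.0189%, 0.0155% and 0.0167% in IgG. The IgG share was higher in each pair. Of 22 that passed the filter, 14 were higher and 2 lower, and only 3 had at least 10 counts in each Input library, of which 1 was higher and 2 lower. RefSeq held 20 of the 22 by gene identifier.

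Mir3064 was the highest of the hairpins printed above. It read 12.5, 13.6 and 11.4 CPM in Input and 62.3, 90.2 and 90.4 in IgG, with no overlap (log2 2.65, SE 0.16, adjusted p 6.4e-12). Its host Ddx5, an RNA helicase, also rose, from 1004, 919 and 820 CPM to 2252, 2824 and 2922 (log2 1.53). Mir219-2, a microRNA of the oligodendrocyte lineage, read 6.17, 1.2 and 0.632 CPM in Input and 60.5, 7.14 and 6.19 in IgG. Number 1 was high in both groups, the lowest IgG value was just above the highest Input value, and the log2 fold change was 3.16 (SE 0.24). Without the block it was 3.13 and not called. Oligodendrocyte lineage markers, summed, were also high in number 1, at 5277 CPM in Input 1 and 3841 in IgG 1 against 1496 to 1960 and 1456 to 1652 in numbers 2 and 3, and their part in the result was not tested.

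Cercam, the gene around Mir219-2, showed no such difference, with 3.97, 7.5 and 3.97 CPM in Input and 5.22, 5.51 and 2.87 in IgG (log2 -0.14, adjusted p 0.63). Mir186 read 0.981, 0.572 and 0.542 CPM in Input and 10.8, 8.76 and 7.18 in IgG (log2 3.63, SE 0.28). Its host Zranb2, a splicing factor, rose by less, from 327, 275 and 325 CPM to 510, 445 and 496 (log2 0.65). Over the 17 microRNA genes with a tested host, 14 lay above it, with medians of 2.03 and 0.80. Of the 3 with at least 10 counts in each Input library only 1 had a tested host, so these values come from genes that passed through the pull-down libraries and are a description. Whether the counting used strand is not given in the sources used here, so reads over a hairpin or snoRNA cannot be assigned to the short RNA, to unspliced host RNA or to an antisense transcript.

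**Figure D3:**
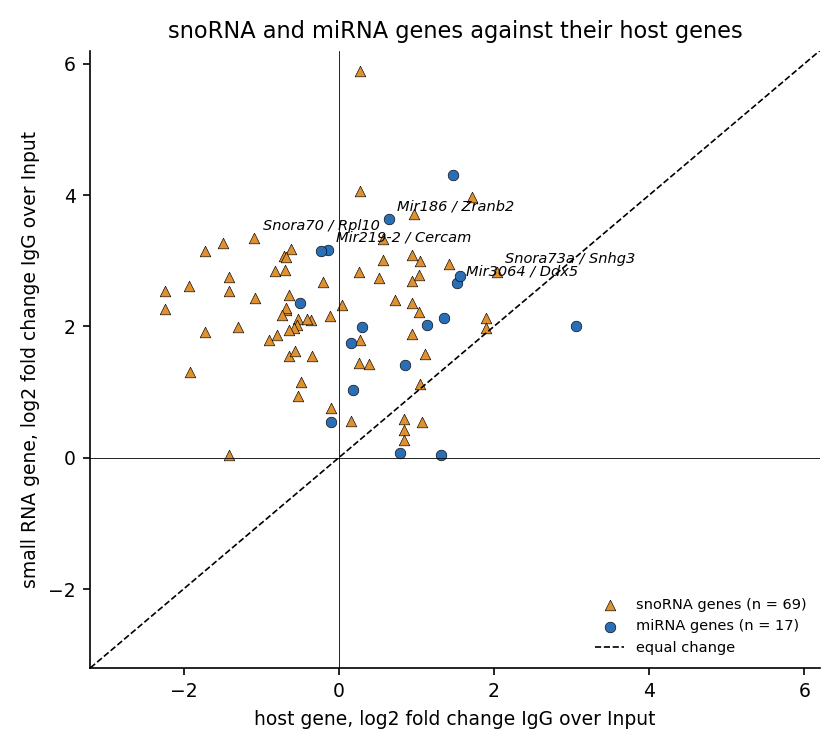
Log2 fold change of IgG over Input for 69 snoRNA genes (triangles) and 17 microRNA genes (circles) against that of the gene whose span holds them; the dashed line marks equal change. Of the snoRNA genes 65 lie above the line, many of them over hosts left of 0.

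Noncoding and other known hosts of snoRNAs were themselves often higher. In the list of snoRNA host genes, chosen by hand and mostly noncoding, 16 of 23 were higher, 1 was lower and 6 were not called (median 0.95). Snhg7 rose from 9.63, 9.27 and 12.4 CPM to 42.6, 31.5 and 42.1 (log2 1.90), and Taf1d, a subunit of the RNA polymerase I initiation factor, from 47.6, 44.1 and 50.1 to 158, 128 and 192 (log2 1.73). Snhg6 was the one that fell, from 43.4, 39.2 and 48.0 CPM to 38.3, 24.4 and 29.3 (log2 -0.53, adjusted p 0.0031), a call lost without the block (-0.50), under ribosomal protein scaling (-0.23) and with limma on TPM (-0.17). Among protein-coding genes other than ribosomal protein genes, 102 of 274 with a snoRNA in the span were higher and 68 lower (median 0.10), against 3371 and 3629 of 12620 without one (median -0.04).

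mRNAs of splicing factors were more often higher than lower in the control pull-down, 26 against 5 of 48. Srsf2, a serine- and arginine-rich splicing factor at chr11:116849897-116853675, read 85.9, 101 and 107 CPM in Input and 762, 795 and 806 in IgG. The 3 IgG values lie close together and far above Input, an 8.07-fold rise (log2 3.01, SE 0.14, adjusted p 1.6e-13). Srsf2 overlaps Mfsd11, so reads of the 2 genes may be shared. Sfrs18, called Pnisr by RefSeq and coding for a protein of splicing speckles, rose from 379, 348 and 416 CPM to 2370, 2830 and 2981 (log2 2.83). Clk1, a kinase of such splicing factors whose own transcript is known for retained introns, rose from 157, 178 and 205 CPM to 602, 835 and 955 (log2 2.12).

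Clk4, its close relative, rose from 106, 125 and 134 CPM to 450, 529 and 592 (log2 2.10), and Leng8 from 46.2, 50.9 and 40.7 to 247, 291 and 332 (log2 2.64). Hnrnpa2b1, an abundant RNA-binding protein of the nucleus, had the second-highest level in IgG at 8851, 6189 and 8602 CPM, against 3116, 2061 and 2729 in Input (log2 1.58). Hnrnpf, of the same family, went the other way, from 165, 138 and 139 CPM to 73.7, 90 and 80.2 (log2 -0.86; -0.59 and not called under ribosomal protein scaling). Of the 26 splicing and hnRNP genes that were higher, 18 rose more than 2-fold, 17 genes were not called, and the median of the list was 0.55.

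Most members of the list of very long mRNAs were higher. Of 63 tested mRNAs of very large structural, motor and scaffold proteins 57 were higher, 36 of them more than 2-fold, none was lower and 6 were not called, with a median of 1.1. Prkdc, the catalytic subunit of the DNA-dependent protein kinase, read 39.8, 29.0 and 29.0 CPM in Input and 167, 141 and 160 in IgG, without overlap (log2 2.26, SE 0.14, adjusted p 1.0e-11). Mdn1, a ribosome assembly ATPase (log2 2.13), Vps13c, a lipid transfer protein (2.06), and Mycbp2, a ubiquitin ligase (1.91), rose by similar amounts.

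Length showed a graded relation over all genes. The relative length of a gene's transcript, as the authors' TPM values imply it, was compared with the fold change in 9 bins of equal number over 13909 genes. The median log2 fold change went from -0.32 in the shortest bin, where 20.4% of genes were higher and 41.3% lower, to 0.48 in the longest, where 51.6% were higher and 10.6% lower. In pairs 1, 2 and 3 the shortest bin had medians of 0.0099, -0.37 and -0.54 and the longest of 0.37, 0.52 and 0.51. Pair 1 thus lay above the other two in the shortest bin and below them in the longest. Across genes Spearman's rho was 0.219. The span of the gene in the genome, which includes introns, gave a weaker relation, with a rho of 0.0927 over 13876 genes.

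Transcript length and gene span were also crossed. The 482 genes in the lowest length class and the highest span class of a 3 by 3 grid had a median of -0.38, and 13.1% of them were higher. Those long in both, 2818 genes, had a median of 0.31, and 43.4% of them were higher. Long transcripts from small genes, 408 in number, had a median of -0.13, with 21.6% higher and 26.5% lower. Abundance went with the fold change in the opposite direction. From the lowest to the highest of 9 bins of Input level per length, the median fell from 0.55 to -0.56, and in the highest bin 10.3% of genes were higher and 64.9% lower (rho -0.337). Input counts enter both quantities there, and genes with few Input counts could pass the filter through the pull-down libraries. Among the 12623 genes with at least 10 counts in each Input library, the medians ran from 0.24 to -0.57 (rho -0.303). With levels from the separate Input libraries of the m6A experiment, which share no library with the fold change, the medians ran from 0.33 to -0.46 (rho -0.264). Those bins kept the genes that passed the main filter.

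**Figure D4:**
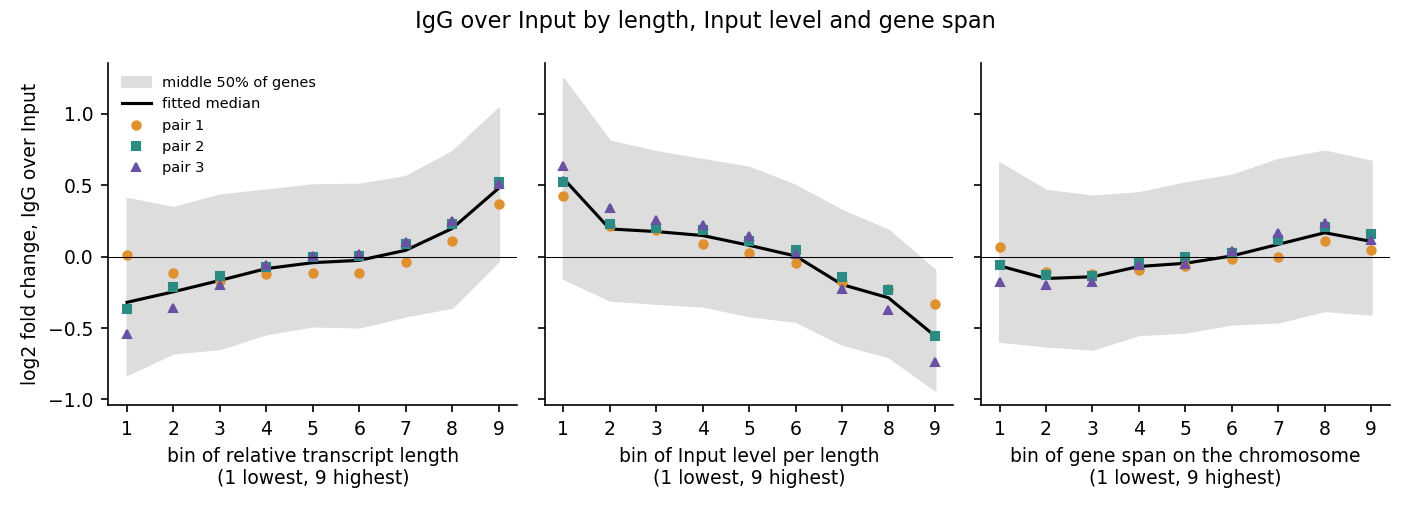
Median log2 fold change of IgG over Input in 9 bins of equal gene number, by relative transcript length, Input level per length and gene span; points give pairs 1, 2 and 3 and the grey band the middle 50% of genes. Medians increase with length and decrease with Input level, and the pairs separate mainly for short and for abundant transcripts.

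Other abundant genes with the largest rises had varied functions. Adamts6, a secreted metalloprotease, rose from 9.21, 9.16 and 15.6 CPM to 80.4, 87.0 and 132 (log2 3.15). Zfp57, a zinc finger protein that maintains imprints, rose from 33.2, 44.2 and 47.8 to 233, 371 and 435 (log2 3.02). Abcc5, a membrane transporter, rose from 146, 112 and 125 to 867, 844 and 923 (log2 2.78), and Cdc7, a kinase that fires replication origins, from 56.4, 61.8 and 74.9 to 359, 354 and 473 (log2 2.61). Tagap1 (log2 2.89), Atp11b (2.76) and Zscan18 (2.68) complete those named by the size rule. All of these had IgG values above every Input value.

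Mitochondrially encoded mRNAs had the lowest median of the lists, at -1.77. The symbol Rnr2 read 44684, 37834 and 64374 CPM in Input and 3145, 2280 and 3096 in IgG, a 17.1-fold drop with no overlap (log2 -4.10, SE 0.16, adjusted p 9.8e-15). Rnr1 fell from 1122, 1194 and 1344 CPM to 205, 178 and 202 (log2 -2.65). The files do not define these symbols and no RefSeq symbol matched them, so they are named only as written. Together they took 4.74% of Input counts and 0.315% of IgG counts.

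mt-Cytb, the mitochondrially encoded subunit of complex III, fell from 17246, 10868 and 15962 CPM to 2247, 1503 and 1682 (log2 -3.02, SE 0.14, adjusted p 1.8e-13). Subunits of complex I fell as well: mt-Nd4 by 2.52, mt-Nd1 by 1.83 and mt-Nd2 by 1.77 on the log2 scale. mt-Co1, a subunit of cytochrome oxidase, fell least, from 4863, 5057 and 6221 CPM to 3300, 2881 and 2655 (log2 -0.87). All 7 mitochondrially encoded mRNAs that passed the filter were lower, and 5 of the 13 were at 0 in all these libraries. Their share of counts was 3.4%, 2.60% and 3.29% in Input and 1.11%, 0.823% and 0.867% in IgG.

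The list of small structured RNAs was mixed. Of 29 members that passed the filter, 22 were higher, most of them snoRNAs with few Input counts, and 2 were lower (median 1.97), while the summed level, as CPM without TMM scaling, was 4206, 5519 and 7318 in Input and 1953, 1265 and 1734 in IgG. Most of that sum was Rn45s, at 4173 to 7269 in Input on the same scale. With TMM scaling Rn45s, the symbol of the 45S precursor, read 4504, 5465 and 7886 CPM in Input and 1856, 1085 and 1472 in IgG (log2 -2.05, adjusted p 2.4e-09). Mir5105, a symbol with no RefSeq match, fell by 2.52 on the log2 scale.

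Most ribosomal protein mRNAs fell, while their summed share moved by less and not in the same direction in every pair. Of 79 genes 55 were lower, 29 of them more than 2-fold, 12 were higher and 12 were not called (median -0.80). Rplp1, a protein of the ribosomal stalk, read 737, 642 and 778 CPM in Input and 166, 74.8 and 84.1 in IgG (log2 -2.85, SE 0.19, adjusted p 2.4e-11). Rplp0, its partner in the stalk, fell from 897, 1168 and 1517 CPM to 252, 176 and 215 (log2 -2.48). Rps20 (log2 -2.35), Rps29 (-2.32), Rps12 (-2.24), Rps21 (-2.19) and Rps15a (-1.86), all of the small subunit, fell as well. IgG 1 held more of each than IgG 2 and IgG 3, while every IgG value stayed below every Input value.

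A few ribosomal protein genes rose. Rps3, at chr7:99477896-99483709 with 2 snoRNA genes in its span, read 1780, 1451 and 1864 CPM in Input and 5966, 2539 and 2561 in IgG (log2 0.97, SE 0.18, adjusted p 5.8e-05), and IgG 1 was far above the others. Rpl14 rose from 1388, 1228 and 1494 CPM to 3050, 2461 and 3253 (log2 1.09). The median over the 79 genes was 0.03 in pair 1, -0.98 in pair 2 and -1.23 in pair 3. Their summed share of counts was 4.76%, 4.54% and 5.26% in Input and 5.97%, 3.44% and 3.95% in IgG, higher in 1 of 3 pairs (exact sign-flip p = 0.75, 2-sided, smallest possible 0.25). Genes of this family have many processed pseudogenes, so the split of their reads is uncertain. Of the 30 genes with a snoRNA in the span 22 were lower, and of the other 49, 33 were lower; the difference was not tested.

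mRNAs for translation and respiration were mostly lower. Of 37 translation factor genes 27 were lower and 5 higher (median -0.62), among them Eif5a, which fell from 543, 438 and 463 CPM to 218, 141 and 134 (log2 -1.58). Tpt1, a translationally controlled protein, fell from 305, 343 and 421 CPM to 164, 61.2 and 88.5 (log2 -1.92). Of 73 nuclear-encoded oxidative phosphorylation genes 55 were lower and 4 higher (median -0.77), with Atp5e, a subunit of ATP synthase, at log2 -2.23 and Ndufs6, of complex I, at -1.61. Mitochondrial ribosomal proteins gave 51 lower and 3 higher of 75 (median -0.53). In pair 1 the medians of the translation and oxidative phosphorylation lists were -0.29 and -0.31, and in pair 3 -0.88 and -1.14.

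Actb and Gapdh were lower as well. Actb, cytoplasmic beta-actin, read 8962, 6703 and 7867 CPM in Input and 4491, 2987 and 2745 in IgG (log2 -1.24, SE 0.14, adjusted p 1.3e-07). Gapdh, a glycolytic enzyme, fell from 1897, 2647 and 2347 CPM to 1227, 967 and 878 (log2 -1.18). The IgG and Input values of both genes were apart in all libraries. Actg1 (log2 -1.40) fell with Actb, and 23 of 39 cytoskeletal genes were lower and 5 higher (median -0.50). Tpi1, another glycolytic enzyme, was at log2 -1.49, and 15 of 20 glycolytic genes were lower. Eno2, the neuronal enolase, was 1 of the 2 that rose (log2 1.27).

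mRNAs translated at the endoplasmic reticulum were lower more often than higher. Of 48 genes for chaperones and the secretory pathway 31 were lower and 5 higher (median -0.54), including Kdelr2, the receptor that returns proteins to this compartment (log2 -1.32). Of 55 secreted and matrix proteins 25 were lower and 10 higher (median -0.27, turning to 0.034 with limma on TPM). Timp2, an inhibitor of metalloproteases, fell from 44.1, 51.7 and 86.7 CPM to 20.6, 17.8 and 24.6 (log2 -1.49).

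**Figure D5:**
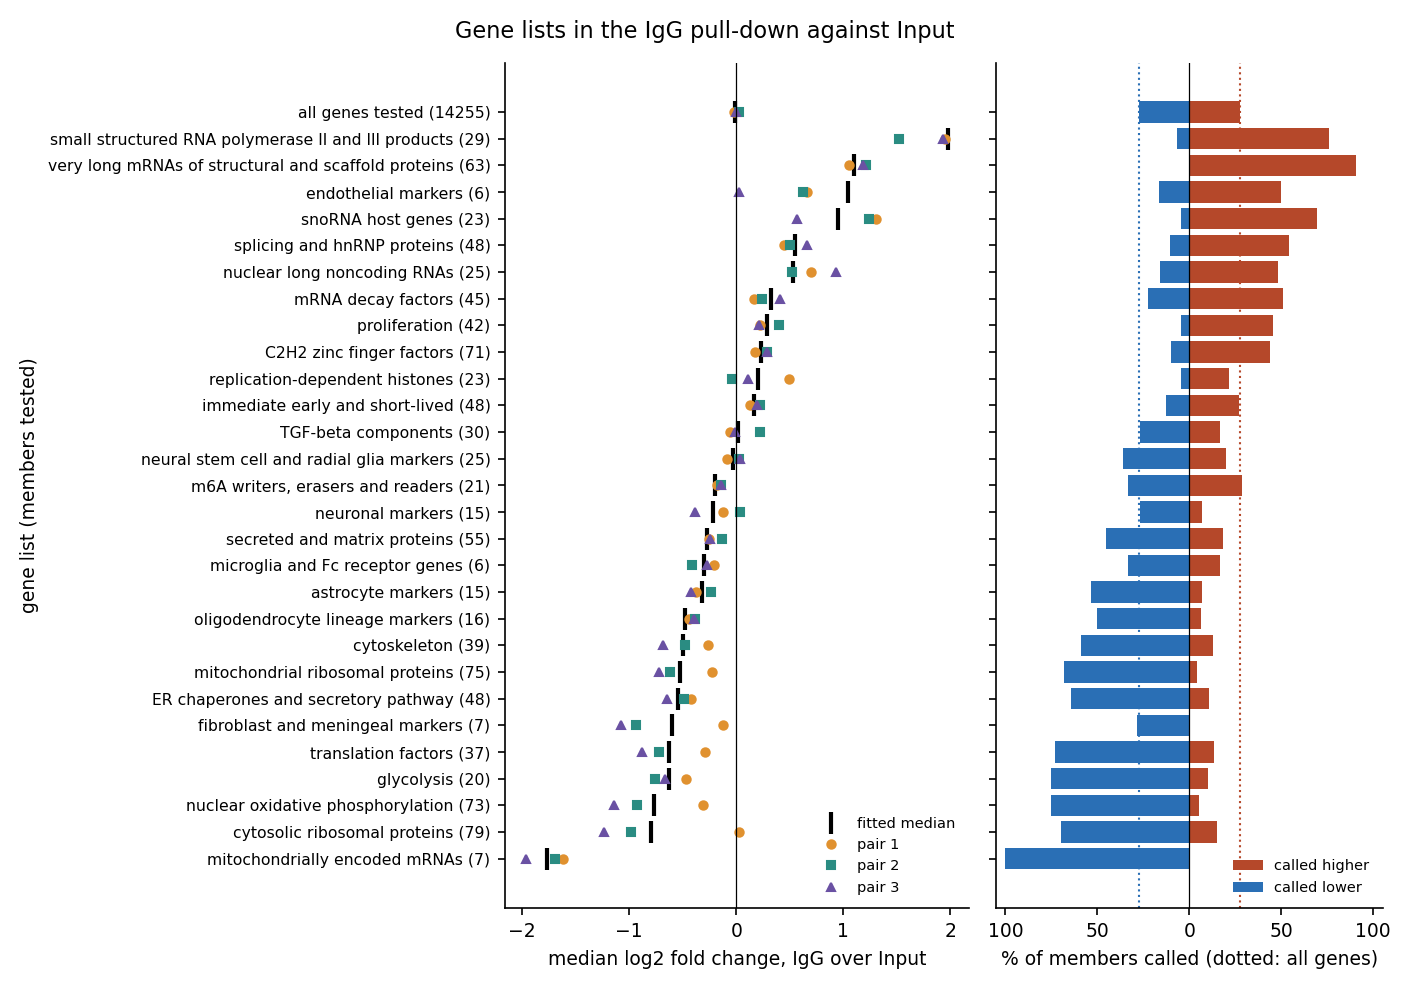
Median log2 fold change of IgG over Input for each gene list, and the percentage of its tested members called higher and lower; dotted lines give all genes tested, 27.8% higher and 27.3% lower. Small structured RNAs, very long mRNAs, the 6 endothelial markers and snoRNA hosts lie at the top, and mitochondrially encoded mRNAs at the bottom. Only 3 of the 6 endothelial markers and 8 of the 29 small structured RNAs had at least 10 counts in each Input library.

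Replication-dependent histone mRNAs lack a poly(A) tail, and 23 of 66 passed the filter. Of these 5 (21.7%) were higher, among them Hist1h1b, a linker histone (log2 1.39), 1 (4.35%) was lower and 17 were not called. Of all genes 27.8% were higher and 27.3% lower. Only 13 of the 23 histone genes had at least 10 counts in each Input library, of which 4 were higher and 1 lower. Proliferation genes gave 19 higher and 2 lower of 42 (median 0.29). Top2a, a topoisomerase of dividing cells, rose from 346, 383 and 562 CPM to 669, 1016 and 1313 (log2 1.19), and Kif23, a cytokinesis motor, was at log2 1.59. Ccnd1, the G1 cyclin, is in the list of neural stem cell and radial glia markers, not in that of proliferation genes. It fell from 933, 1032 and 786 CPM to 331, 369 and 300 (log2 -1.46), the lowest of the stem cell list, of which Top2a was the highest.

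Markers of the labelled cell type were present in both groups. Summed over 25 neural stem cell and radial glia markers, as CPM without TMM scaling, Input held 15465 to 15924 CPM and IgG 13233 to 14559. Of these genes 5 (20%) were higher, 9 (36%) lower and 11 not called, against 27.8% higher and 27.3% lower of all genes. Slc1a3, a glutamate transporter of radial glia, fell from 3844, 3282 and 3370 CPM to 1803, 1715 and 1724 (log2 -1.0). Elavl3, a neuronal RNA-binding protein, was at log2 -1.44 and Slc1a2, an astrocytic glutamate transporter, at -1.03. Neuronal markers gave 1 higher (6.67%) and 4 lower (26.7%) of 15, and astrocyte markers 1 higher (6.67%) and 8 lower (53.3%) of 15.

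Oligodendrocyte lineage markers gave 1 higher and 8 lower of 16. Ugt8a, an enzyme of myelin lipid synthesis, read 118, 34.3 and 42.4 CPM in Input and 51.5, 17.8 and 15.3 in IgG. Number 1 was high in both groups, so the groups overlap although each pair fell (log2 -1.20, not called without the block). Microglia and Fc receptor genes were looked at because IgG binds Fc receptors. Of 21, 9 were at 0 in all 6 libraries and 6 passed the filter, of which 1 was higher, 2 were lower and 3 were not called. Summed over the list, without TMM scaling, the level was 75 to 106 CPM in Input and 56.4 to 80.1 in IgG. Fcer1g, the shared gamma chain of Fc receptors, was the one that was higher, from 0.140, 0.0572 and 0.181 CPM to 0.304, 1.08 and 0.774, low in every library (log2 2.51, SE 0.80, adjusted p 0.010). Its call was lost without IgG 2 (1.75) or Input 2 (2.03). Fcgrt, the neonatal Fc receptor, read 26.5, 46.5 and 35.4 CPM in Input and 17.2, 30.6 and 25.9 in IgG, with overlap between the groups but a fall in each pair (log2 -0.56, adjusted p 0.0016), a call lost without the block and under ribosomal protein scaling (-0.26) or TPM (-0.20). Thy1, a surface antigen of neurons that was counted here in the list of fibroblast and meningeal markers, fell by 1.61 on the log2 scale.

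Fibroblast markers gave none higher and 2 lower (28.6%) of 7, with Thy1 among the lower, against 27.3% lower of all genes. Endothelial markers gave 3 higher and 1 lower of 6, at summed levels of 5.33 to 10.3 CPM in Input and 7.35 to 12.6 in IgG. Only 3 of these 6 had at least 10 counts in each Input library, and of those 1 was higher and 1 lower. The others passed the filter through the pull-down libraries, and the list median turned negative without them. Red blood cell markers summed to less than 1 CPM in every library. Bulk levels of a marker do not separate the number of cells from the RNA per cell. A change from Input to the IgG pull-down is a measure of neither.

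The control pull-down also bears on the genes the YTHDF2 pull-down is read for. The contrast of YTHDF2 over IgG uses the same IgG libraries as the contrast above, so values are given side by side. Over all genes 3134 (22%) were higher in YTHDF2 than in IgG and 1268 (8.9%) lower. Ythdf2 mRNA itself read 92.3, 95.8 and 85.8 CPM in Input and 75.2, 76.3 and 77.7 in IgG. Those values do not overlap but were not called (log2 -0.26, adjusted p 0.077; called with DESeq2 at -0.31, and turning to 0.016 under ribosomal protein scaling and 0.094 with TPM), and YTHDF2 over IgG was 1.59 (adjusted p 2.6e-10).

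Smad3, a signal transducer of TGF-beta receptors, read 101, 118 and 110 CPM in Input and 81.0, 91.3 and 75.2 in IgG (log2 -0.41, adjusted p 0.0097; not called without the block, under ribosomal protein scaling at -0.14 or with limma on TPM at -0.057), with YTHDF2 over IgG at 2.16. Tgfb2, a ligand, overlapped between the groups, with 138, 187 and 154 CPM in Input and 116, 155 and 117 in IgG (log2 -0.31, adjusted p 0.041, not called without the block, at -0.18 with library size and -0.035 under ribosomal protein scaling, and at 0.041 with limma on TPM), and 1.32 for YTHDF2 over IgG. The receptor Tgfbr1 was lower in IgG (log2 -0.55; not called without the block, with library size at -0.42, under ribosomal protein scaling at -0.29 or with limma on TPM at -0.13) and not called between YTHDF2 and IgG (-0.51). Among regulators Tgif1, a corepressor, was higher in IgG (log2 0.63) and higher still in YTHDF2 (0.87 over IgG), while Zfyve16, an endosomal adaptor, and Smurf2, a ubiquitin ligase, rose by 1.74 and 0.94 in IgG with no call between YTHDF2 and IgG. Smad9, a transducer of the BMP branch, fell from 8.83, 5.72 and 3.52 CPM to 2.00, 2.36 and 2.32 (log2 -1.44). For Smad3, Tgfb2 and Tgfbr1 the changes between IgG and Input were small and the calls sat near the threshold. The IgG call was lost for Smad3 without IgG 2 (-0.41) or IgG 3 (-0.35). For Tgfb2 it was lost without IgG 2 (-0.28), IgG 3 (-0.31) or Input 3 (-0.28). For Tgfbr1 it was lost without IgG 1 (-0.51), IgG 2 (-0.55), Input 1 (-0.33) or Input 2 (-0.53). In all, 30 of 35 TGF-beta genes passed the filter. Of these 5 (16.7%) were higher in IgG, 8 (26.7%) lower and 17 not called, against 27.8% and 27.3% of all genes. The median of 0.02 turned negative under RLE size factors (-0.036), and 11 genes were higher and none lower in YTHDF2 over IgG.

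Zinc finger genes were higher more often than lower in both contrasts. Of 71 tested C2H2 factors 31 were higher and 7 lower in IgG over Input (median 0.23), and 58 were higher and 1 lower in YTHDF2 over IgG (median 1.01). Zfp26 rose from 118, 96.2 and 142 CPM to 251, 284 and 326 (log2 1.27) and by a further 1.29 in YTHDF2. Zfp263 rose from 22.4, 25.8 and 21.8 CPM to 110, 149 and 167 (log2 2.58), and YTHDF2 lay below IgG (-0.45). Short-lived mRNAs gave 13 higher (27.1%) and 6 lower (12.5%) of 48 in IgG over Input, against 27.8% and 27.3% of all genes. The share higher was thus near that of all genes. Socs3, a cytokine signalling inhibitor, was at 1.39 and Myc, a growth transcription factor, at 0.96.

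Splicing genes showed the reverse order, with 1 of 48 higher and 14 lower in YTHDF2 over IgG (median -0.30). Srsf2 was at -0.57, Leng8 at -0.52 and Snhg11 at -0.55 in that contrast. Genes of the m6A pathway gave 6 higher (28.6%) and 7 lower (33.3%) of 21 in IgG over Input, against 27.8% and 27.3% of all genes. Mettl3, the catalytic subunit of the m6A methyltransferase, rose from 47.2, 34.5 and 46.1 CPM to 118, 99.9 and 108 (log2 1.36), and the readers Ythdc2 and Ythdc1 by 1.41 and 0.84. Of 45 mRNA decay factors 23 were higher and 10 lower, with Pan3, a subunit of a deadenylase, at 1.74.

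Separate libraries show other properties of the same genes. In the m6A pull-down of the series, 2441 of 14167 genes (17.2%) were higher than in its own Input and 2932 (20.7%) lower. Among genes higher in IgG 20.7% were higher and 11.1% lower in the m6A pull-down, against 17.9% and 21.3% of all genes tested in both. Among genes lower in IgG 17.9% were higher and 40.6% lower. The 783 genes higher in both make 20.7% of the IgG list and 32.1% of the m6A list. Of all 13637 genes tested in both, 17.9% were higher in m6A and 27.7% higher in IgG.

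In WT cells kept for 4 h in 5 µM actinomycin D, which stops transcription, 4273 of 13112 genes (32.6%) rose against 0 h and 4624 (35.3%) fell, relative to the rest of the library. Of genes higher in IgG 18.5% rose and 48.6% fell, and of genes lower in IgG 55.9% rose and 20.6% fell. Rplp1, for example, rose by 1.26 and Gapdh by 1.06 in actinomycin D, while Cdc7 fell by 1.13 and Clk1 by 1.06, all on the log2 scale. Snhg11 was higher in IgG and also rose after actinomycin D (log2 1.15). How the m6A and actinomycin D changes go with length or abundance was not examined. Genes higher and lower in IgG differed in both length and abundance. The median relative length was 1.21 for genes higher in IgG and 0.796 for those lower, and the median Input levels were 15.1 and 48.0 CPM. Their part in these shares was not tested.

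The 8 most abundant transcripts of the IgG libraries included genes higher, lower and not called against Input. After Malat1 and Hnrnpa2b1, the genes with the highest IgG levels were Hsp90ab1, a chaperone (log2 0.46, not called without the block), Scd2, a fatty acid desaturase (-0.95), Ywhae, a 14-3-3 protein (0.16, adjusted p 0.32), Rps3, Actb and Qk, an RNA-binding protein (0.11, adjusted p 0.49). Ywhae read 3528, 3306 and 3803 CPM in Input and 3917, 4345 and 3646 in IgG, with overlap.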

How the data were processed

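Raw counts per gene symbol and TPM were deposited by the authors. Per the submitters' processing notes, reads went through bcl2fastq 2.17.1.14, Trimmomatic 0.32 and STAR 2.5.2a on GRCm38; for the counter, annotation and strand setting the entry is "not given in the sources used here". Groups follow the column names. Counts of 9 libraries (IgG, Input, YTHDF2) were fitted with edgeR 4.0.16 in R 4.3.3: filterByExpr, TMM scaling, quasi-likelihood test, number as a block, contrast IgG minus Input with 4 residual degrees of freedom, Benjamini-Hochberg threshold 0.05, 2-sided. The block was kept because deviations from group means correlated between same-numbered libraries at 0.353 to 0.646. Between different numbers they correlated at most at -0.014. Centring each group of 3 libraries pushes these values below 0, so they are no separate support for the pairing. The m6A and actinomycin D libraries were fitted in the same way, each in a table of their own. CPM values of single genes are TMM-scaled, and summed list levels are plain CPM. A prior count of 2 entered only the log2 CPM behind pair values, correlations and deviations. The fitted folds did not use it, so it did not damp the folds of genes with few counts. No 2 libraries were identical. Relative length is the ratio of deposited count to TPM, scaled across genes. RefSeq (GRCm38.p6) gave positions, biotypes and hairpins and matched 24557 of 26621 symbols.

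The members and lists were chosen with earlier results of these data known. Genes named are the 12 largest and 12 smallest changes among abundant genes whose groups do not overlap and whose symbols are not clone, predicted gene or pseudogene names, the 4 smallest p-values of each list, the 8 highest IgG levels and 10 set genes, as far as they are told here; 14 others (Gas5, H19, Snora70, Rpl10, Mir219-2, Mir186, Ddx5, Cercam, Zranb2, Snhg3, Snhg6, Hnrnpf, mt-Co1, Rpl14) were chosen after their values were seen. The same fit was also run on simulated counts with known changes, drawn from the levels and spread of these data. Alternatives used DESeq2 1.42.0 and limma 3.58.1 on log2(TPM + 1).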

Additional observations from a re-analysis of the deposited data

How the results depend on the processing

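Against 3958 genes higher and 3892 lower in IgG, the fit without the replicate block gave 2873 and 2422, all among those of the blocked fit; of the named genes, 9 lost the call (Fcgrt, Hsp90ab1, Mir219-2, Rpl10, Smad3, Snhg6, Tgfb2, Tgfbr1, Ugt8a). In the other contrasts the fit without this block gave 858 genes higher in m6A over its Input, and 2040 higher and 47 lower in YTHDF2 over IgG (added after seeing the data). More than 2-fold lower genes numbered 722 with library size alone and 413 with scaling to ribosomal protein counts, which called 1033 lower in all. With limma on log2(TPM + 1) 1739 genes were lower, 246 of them more than 2-fold. The median of all genes moved from -0.0071 to 0.12 with library size, to 0.27 with ribosomal protein counts and to 0.26 with TPM. The causes of these shifts were not tested. Leaving out 1 library or 1 number at a time gave 3200 to 4064 genes higher, 2945 to 3685 lower, 1697 to 2039 more than 2-fold higher and 953 to 1322 more than 2-fold lower. The mitochondrial share fell by 3.26 percentage points as TPM. The last minus first bin of Input level was -0.79 with levels from the m6A experiment, a choice added after seeing the data, against -1.10.

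With Input names taken from the titles, IgG is compared with the libraries that the columns call YTHDF2. Then 1268 genes were higher, 25 more than 2-fold, and 3134 lower, 1675 more than 2-fold, with 688 calls in the opposite direction. List medians that turned positive were 0.33 for mitochondrially encoded mRNAs, 0.20 for ribosomal proteins, 0.22 for translation factors, 0.25 for oxidative phosphorylation, 0.16 for mitochondrial ribosomal proteins, 0.23 for secreted proteins, 0.22 for the secretory pathway, 0.22 for the cytoskeleton and 0.23 for glycolysis. Marker lists read 0.047 for stem cells, 0.16 for neurons, 0.057 for astrocytes, 0.14 for microglia and 0.019 for fibroblasts. Medians that turned negative were -1.01 for zinc finger, -0.33 for short-lived and -0.35 for TGF-beta genes. Genes that turned positive were Xist 0.33, H19 0.50, Rpl10 0.32, Snhg6 0.29, Hnrnpf 0.044, Rnr1 0.18, mt-Cytb 0.33, mt-Nd4 0.41, mt-Nd1 0.35, mt-Nd2 0.41, mt-Co1 0.30, Rplp1 0.13, Rplp0 0.15, Rps29 0.14, Rps15a 0.14, Rps20 0.14, Rps12 0.066, Rps21 0.13, Eif5a 0.25, Atp5e 0.13, Ndufs6 0.29, Actb 0.35, Actg1 0.20, Gapdh 0.13, Tpi1 0.013, Ccnd1 0.26, Kdelr2 0.23, Fcgrt 0.15, Thy1 0.032 and Tgfbr1 0.51. Tgif1 at -0.87, Pan3 at -0.088, Zfp26 at -1.29, Socs3 at -0.053 and Myc at -0.37 turned negative.

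Without number 2, Fcgrt (-0.52), Hsp90ab1 (0.43), Snhg6 (-0.44), Tgfb2 (-0.31), Tgfbr1 (-0.51) and Fcer1g (1.65) lost the call. Without number 1 Tgfbr1 (-0.38) did, and without number 3 Smad3 (-0.35) and Tgfb2 (-0.28). Xist was called lower without IgG 1 (-3.56) or Input 1 (-5.25) and higher without number 2 (1.16) or Input 2 (1.13). Medians near 0 changed sign elsewhere. TGF-beta genes read -0.035 with DESeq2, -0.036 with RLE size factors, -0.00335 with no filter, and -0.047 to 0.17 leaving out libraries. Stem cell markers read 0.10 with library size, 0.24 with ribosomal protein scaling, 0.29 with TPM, 0.032 with at least 10 counts in each Input library and -0.11 to 0.068 leaving out libraries. Ribosomal protein scaling gave 0.079 for m6A genes and 0.12 for neuronal markers, and TPM 0.13 and 0.10. TPM gave 0.034 for secreted proteins and 0.038 for microglia. Endothelial markers read -1.10 with at least 10 Input counts and -0.11 with the 6 libraries alone. Histones read -0.027 to 0.31 leaving out libraries. Xist read 0.80 without the block, 0.17 with TPM and -5.25 to 1.16 leaving out libraries. Cercam read 0.12 with ribosomal protein scaling, 0.13 with TPM and -0.46 to 0.046 leaving out libraries. Ythdf2 read 0.016 with ribosomal protein scaling and 0.094 with TPM, and Tgfb2 0.041 with TPM. Of the recomputed values of 99 named genes under 19 alternatives, 1737 kept direction and call, 80 lost the call, 9 gained it and 47 changed sign, the last given above as values or ranges.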

Other observations

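The Input libraries of the pull-down experiment can be set beside other unselected libraries of the same genotype. Malat1 stood at 20168 to 23713 CPM in the 3 RIP-seq Input libraries, at 11862 to 12597 in the 3 Input libraries of the m6A experiment and at 3759 to 4442 in the 3 WT RNA-seq libraries at 0 h. Snhg11, higher in IgG, read 52.6 to 76.9, 54.3 to 64.5 and 11.7 to 16.1 CPM in these sets. These CPM values are over all symbols and were normalised within each table, so levels set across tables are descriptive. RNA-seq used another library protocol, SMART-seq2.

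The share of counts on mitochondrially encoded mRNAs was 2.6% to 3.4% in RIP-seq Input, 2.76% to 3.10% in m6A Input and 2.61% to 2.89% in RNA-seq at 0 h. It was 0.823% to 1.11% in IgG and 0.690% to 0.823% in YTHDF2. The symbols Rnr1 and Rnr2 together took 3.91% to 6.06%, 2.55% to 3.14% and 0.622% to 0.745% of counts in the unselected sets, 0.264% to 0.354% in IgG and 0.297% to 0.414% in YTHDF2.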
